A study of Homo sapiens with 6 samples.

Results

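The 10 genes described here are snoRNA host genes of human cells, the long noncoding RNA genes GAS5, SNHG1, SNHG3, SNHG5, SNHG6, SNHG8, SNHG12, SNHG15, SNHG16 and ZFAS1. They were chosen by name from a table of 57773 genes, and all 10 were in the table and passed the filter on low counts. RNA sequencing of ribosome-depleted total RNA had been performed in the HEK293 line, which comes from cultured kidney cells of a human embryo, after disruption of a zinc finger gene with CRISPR/Cas9. The control group (EV) received Cas9 plasmid without a targeting guide, the sgZNF146 group received Cas9 with guides against ZNF146, and the sgZNF507 group received Cas9 with guides against ZNF507, with 2 libraries in each group. In all 3 groups cells were transfected transiently, selected with puromycin for 36 h and grown out for 2 weeks, and RNA was taken from the mixed cell population rather than from a clone. Each targeted group received 4 guides, so cells within a group can carry different edits or none.

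A snoRNA host gene carries small nucleolar RNAs in its introns. After splicing the snoRNA is trimmed out of the excised intron and, with its partner proteins, guides 2'-O-methylation (C/D box class) or pseudouridylation (H/ACA box class) of ribosomal RNA, or takes part in its cleavage. The exons are joined into a second RNA that usually has no long reading frame. In many hosts this spliced RNA begins with the run of pyrimidines known as a 5' terminal oligopyrimidine (5'TOP) tract, shared with ribosomal protein mRNAs, and it is often degraded by nonsense-mediated decay as soon as ribosomes engage it. The level of the spliced RNA therefore reflects both synthesis and decay, which counts of total RNA cannot separate.

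Start-site sequences of 8 of the 10 hosts were available from RefSeq (GRCh38.p14), and they are shown because the tract at the first transcribed base is the feature that hosts are known to share with ribosomal protein genes. Each window runs from 40 bases before the annotated start to 15 bases from it, 5' to 3' on the strand of the gene. Capitals mark a C followed by at least 4 C or T that begins within 5 bases of the start, and the letters TATA where they lie 40 to 20 bases before it, both read on the strand of the gene only.
SNHG5 (chr6:85678719-85678773, minus strand): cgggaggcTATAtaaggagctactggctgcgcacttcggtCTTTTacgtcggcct
SNHG12 (chr1:28581859-28581913, minus strand): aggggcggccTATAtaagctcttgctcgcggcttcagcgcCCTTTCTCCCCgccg
ZFAS1 (chr20:49278602-49278656, plus strand): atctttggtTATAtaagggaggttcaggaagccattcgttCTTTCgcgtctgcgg
SNHG8 (chr4:118278722-118278776, plus strand): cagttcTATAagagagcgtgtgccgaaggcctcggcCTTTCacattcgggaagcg
SNHG16 (chr17:76557724-76557778, plus strand): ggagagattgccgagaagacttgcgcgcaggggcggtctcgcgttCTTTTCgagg
GAS5 (chr1:173869031-173869085, minus strand): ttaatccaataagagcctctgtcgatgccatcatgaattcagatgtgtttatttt
SNHG1 (chr11:62855871-62855925, minus strand): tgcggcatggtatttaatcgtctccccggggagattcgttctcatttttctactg
SNHG3 (chr1:28505903-28505957, plus strand): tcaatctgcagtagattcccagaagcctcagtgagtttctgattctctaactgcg
The tract began exactly at the annotated start in SNHG5, SNHG12 and ZFAS1, 3 of 8 hosts, against 4.07% of 35116 RefSeq windows and 54.3% of 81 windows of ribosomal protein genes. With a tolerance of 5 bases, SNHG8 and SNHG16 joined them, 5 of 8 against 21.1% of all windows. TATA was found in SNHG5, SNHG8, SNHG12 and ZFAS1, 4 of 8 against 5.91% of all windows. These are matches of letters in a fixed window around 1 annotated start for each gene. That RefSeq start was not matched to the start of the gene model used for counting, so a window without the tract does not show that the host lacks it.

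The snoRNA genes that the annotation placed inside a host on its strand, and that were in the count table, numbered 7. SNORD78 lies in GAS5, SNORA73B in SNHG3, SNORD99 in SNHG12, SNORD1B in SNHG16, and SNORD12, SNORD12B and SNORD12C in ZFAS1. Other snoRNAs of these hosts were not analysed here. SNORA73B, an H/ACA box snoRNA that acts in ribosomal RNA processing, and the SNORD12 family, C/D box guides for methylation, are printed from GRCh37 because the counts below turn on their hosts. Capitals mark TGATGA within the first 20 bases (the C box) and CTGA within the last 14 bases (the D box) of a C/D box gene, and ACA within the last 8 bases of the H/ACA box gene, on the strand of the gene.
SNORA73B (chr1:28835071-28835274, plus strand): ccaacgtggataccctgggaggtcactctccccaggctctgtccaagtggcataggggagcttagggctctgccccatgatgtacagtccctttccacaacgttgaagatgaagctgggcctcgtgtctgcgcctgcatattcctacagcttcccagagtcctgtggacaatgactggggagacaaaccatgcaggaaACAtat
SNORD12 (chr20:47897220-47897309, plus strand): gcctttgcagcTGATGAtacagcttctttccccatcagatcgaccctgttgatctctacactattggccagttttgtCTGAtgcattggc
SNORD12B (chr20:47896856-47896946, plus strand): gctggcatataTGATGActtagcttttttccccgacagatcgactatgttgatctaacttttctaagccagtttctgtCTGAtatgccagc
SNORD12C (chr20:47895477-47895565, plus strand): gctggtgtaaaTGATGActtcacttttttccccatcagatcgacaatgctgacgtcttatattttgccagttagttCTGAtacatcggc
Across all annotated genes of each class in the table, TGATGA was found by the same rule in 58.8% of 388, CTGA in 77.1% of 388 and ACA in 72.6% of 398. SNORA73B spans 204 bases, and the 3 SNORD12 genes span 89 to 91 bases.

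The libraries held between 22724439 and 28524025 counts in genes, with normalization factors of 0.9701 to 1.0167. Of the HEK293 markers, PAX2, NEFM, VIM and CKB were detected in all 6 libraries, with PAX2 the lowest at 5.25 to 8.03 CPM (counts scaled to a library of 1000000 counts). Of markers of other cells, PTPRC, CD3E, ALB and HBB reached at most 0.229 CPM, and COL1A1, a collagen gene of fibroblasts, ranged from 58.9 to 73.0 CPM, with a log2 fold change of 0.18 in sgZNF507 against EV (adjusted p = 1.00). ZNF507 had 72.0 and 75.5 CPM in the EV libraries against 47.2 and 48.7 in the sgZNF507 libraries (log2 fold change -0.62, SE 0.07, adjusted p = 0.00195). ZNF146 had 115 and 105 CPM in EV against 99.2 and 103 in sgZNF146 (log2 fold change -0.13, adjusted p = 1.00), and 88.4 and 101 in sgZNF507 (-0.21 against EV, adjusted p = 1.00), so its mRNA level does not check that label. The paper gives other evidence of disruption for both genes. It reports both proteins as essentially undetectable by western blot in the targeted cells, and frequent indels at the guide sites in the RNA reads.

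The host genes spanned a wide range of levels, and together they took 0.0898% to 0.101% of all counts in a library. The sum was 957 ± 74.3 CPM in EV, 966 ± 14.9 in sgZNF146 and 909 ± 4.31 in sgZNF507 (mean ± SD, n = 2 libraries each). Only levels divided by transcript length compare genes with each other. Per kilobase of the canonical transcript SNHG16 stood first, with 717 to 775 CPM per kb across the 6 libraries. GAS5 followed at 119 to 133, ahead of SNHG3 at 80.2 to 107 and SNHG1 at 82.3 to 90.0, and the ranges of the last pair overlapped. SNHG5 lay at 30.7 to 34.7, SNHG15 at 17.4 to 19.1 and SNHG12 at 9.51 to 13.5 CPM per kb, with no overlap between neighbours. SNHG6 at 5.76 to 6.39 and ZFAS1 at 4.42 to 5.78 overlapped at their edges, and SNHG8 was last at 3.09 to 3.58. The order depends on the transcript model: the canonical SNHG16 transcript has 498 bases but all its exons together cover 5776, and on the length of all exons GAS5 moved from rank 2 to 4 and SNHG5 from rank 5 to 8, while SNHG16 stayed first.

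**Figure D1:**
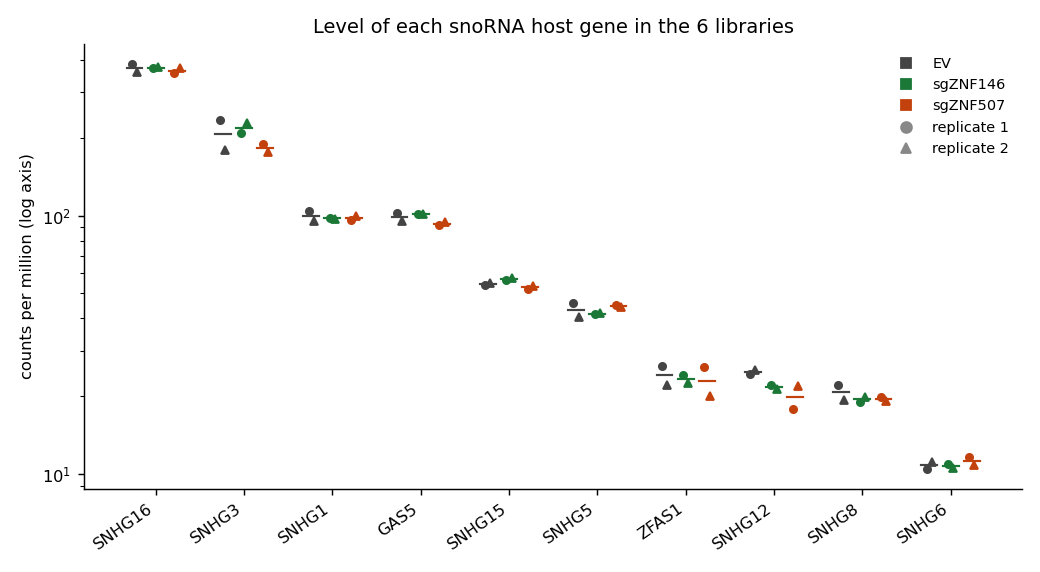
Level of each of the 10 host genes in CPM on a log axis, with a circle for replicate 1, a triangle for replicate 2 and a bar for the mean of each group. Within a gene the highest library exceeded the lowest by between 1.08 times (SNHG16) and 1.42 times (SNHG12).

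Disruption of ZNF507 was compared with EV to ask whether host gene RNA depends on this factor. None of the 10 hosts passed edgeR's quasi-likelihood test at an adjusted p of 0.05, against 0.182% of the 22010 genes tested, and DESeq2 also called 0. Tests and intervals between groups have the group as their only term unless a block is named, so they leave out the replicate number. With the replicate number of the labels as a block 0 hosts passed, where 121 of all genes did. At an unadjusted p under 0.05 edgeR found 1 host, SNHG12, and DESeq2 found the same 1. Of all 22010 genes edgeR found 3.39% and DESeq2 found 265. The median log2 fold change of the hosts was -0.06, with 8 of 10 below 0. That of all genes was -0.0032, with 11236 of 22010 below 0. The 95% interval of every host lay within a 1.5-fold change in either direction, and that of 5 hosts within 1.2-fold. In RNA from whole populations, fewer cells with a change and a smaller change in each cell cannot be told apart.

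SNHG12, a host of both H/ACA and C/D box snoRNAs on chromosome 1 (GRCh37 chr1:28905050-28909644, minus strand), gave the largest difference of the 10 from EV. It had 24.5 and 25.3 CPM in EV, 22.2 and 21.3 in sgZNF146, and 17.8 and 21.9 in sgZNF507. Both sgZNF507 libraries were below both EV libraries, but the second lay at the level of the sgZNF146 libraries. The log2 fold change of sgZNF507 against EV was -0.32 (SE 0.11, 95% interval -0.56 to -0.09, adjusted p = 1.00 by edgeR). With the replicate number as a block it was also -0.32, with an adjusted p of 0.0919 by edgeR, above the threshold but much lower. The log2 fold change became -0.19 without sgZNF507 replicate 1 and -0.47 without replicate 2. The gene shares 8 exonic bases with TRNAU1AP on the opposite strand. None of the 45 tested genes that start within 1 Mb of it, SNHG3 among them, passed the test, and their median log2 fold change was 0.0021. With 0.182% of all genes passing, none of 45 says little about this region. SNORD99, the C/D box snoRNA in its intron, had only 14 to 26 counts per library and a log2 fold change of 0.0019 (SE 0.35).

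GAS5, named for its accumulation in growth-arrested cells and a host of many C/D box snoRNAs, had 102 and 95.8 CPM in EV, 102 and 101 in sgZNF146, and 91.6 and 94.1 in sgZNF507. SNHG15, a host of an H/ACA box snoRNA, had 54.0 and 55.1 CPM in EV, 56.4 and 57.2 in sgZNF146, and 52.2 and 53.3 in sgZNF507. In both genes the sgZNF507 libraries were the lowest pair and did not overlap with either other group, yet the log2 fold changes against EV were small, -0.09 (SE 0.06) and -0.05 (SE 0.07), both with an adjusted p of 1.00 by edgeR. With SNHG12 they made 3 hosts whose libraries did not overlap between sgZNF507 and EV, where 29.3% of all genes tested did not overlap. ZBTB37, which starts 391 bases from GAS5 on the opposite strand, had a log2 fold change of 0.10 (SE 0.07) in this comparison.

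The libraries of the remaining hosts overlapped between sgZNF507 and EV. SNHG1, a host of a long series of C/D box snoRNAs, had 105 and 95.6 CPM in EV against 96.0 and 99.9 in sgZNF507, and SNHG16, the most abundant host, had 386 and 361 against 357 and 373. In SNHG1 the sgZNF507 libraries lay between the EV libraries, and in SNHG16 the ranges crossed. SNHG5, which carries the SNORD50 pair, had 45.7 and 40.4 CPM in EV against 45.2 and 44.2 in sgZNF507. SNHG6, host of a C/D box snoRNA, had 10.5 and 11.1 against 11.6 and 10.8, and SNHG8, host of an H/ACA box snoRNA, had 22.1 and 19.4 against 19.9 and 19.2. ZFAS1 had 26.2 and 22.1 CPM in EV against 26.0 and 20.02 in sgZNF507, with the first library high in both groups. The log2 fold changes of these 6 genes lay between -0.08 and 0.06, and that of SNHG3, whose libraries are given further on, was -0.18 (SE 0.10). SNHG6 had the fewest counts, 261 to 314 per library, with a 95% interval of -0.20 to 0.31, and ZFAS1, with 568 to 651 counts, had an interval of -0.35 to 0.20.

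**Figure D2:**
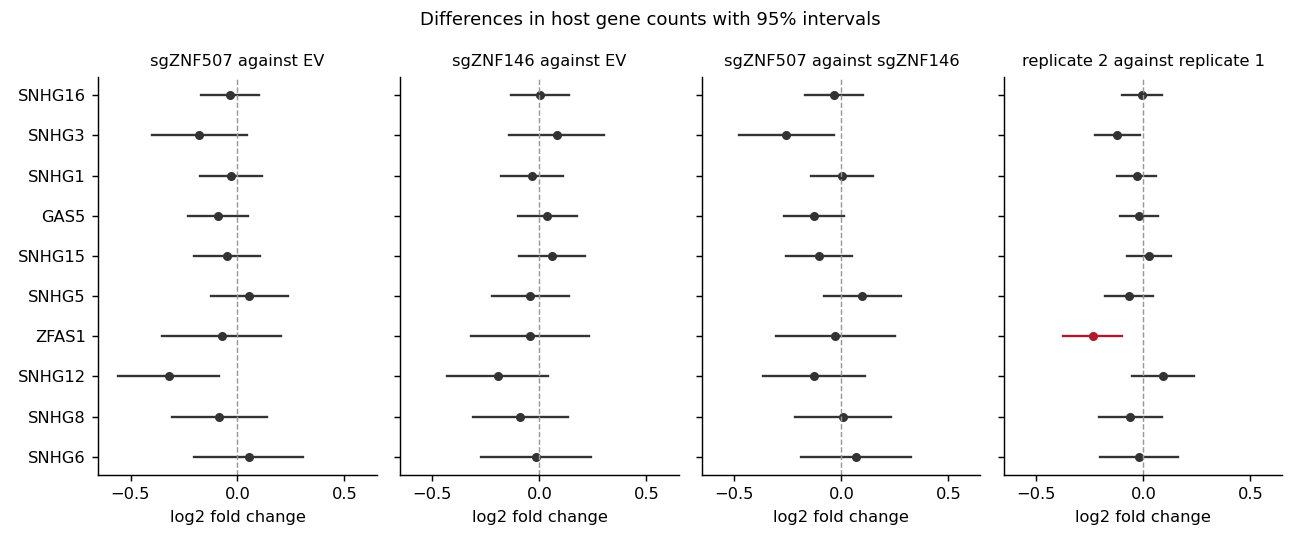
Log2 fold change of each host gene (points) with its 95% interval (lines) in the 3 comparisons between groups and in replicate 2 against replicate 1, where red marks an adjusted p under 0.05. In the comparisons between groups no host is marked, and only SNHG12 (sgZNF507 against EV, -0.32) and SNHG3 (sgZNF507 against sgZNF146, -0.26) have an interval that leaves out 0. In the comparison of replicates ZFAS1 is marked.

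Disruption of ZNF146 was compared with EV in the same fit, so both comparisons share the EV libraries. None of the 10 hosts passed the test by edgeR, as for all genes (0.0% called), and none by DESeq2. With the replicate number as a block 0 hosts passed, where 33 of all genes did. At an unadjusted p under 0.05 edgeR found 0 hosts and 2.43% of all genes, and DESeq2 found 0 hosts and 140 of all 22010 genes. The log2 fold changes ran from -0.19 for SNHG12 to 0.08 for SNHG3, with a median of -0.03, and all 10 intervals lay within 1.5-fold. The libraries of sgZNF146 and EV did not overlap for SNHG12, lower in sgZNF146, and for SNHG15, higher, 2 hosts against 28.6% of all genes tested. SNHG12 had a log2 fold change of -0.19 (SE 0.11, 95% interval -0.43 to 0.04).

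The direct comparison of sgZNF507 with sgZNF146 turned on SNHG3, the host of the H/ACA box snoRNA SNORA73B on chromosome 1 (GRCh37 chr1:28832492-28837404, plus strand). SNHG3 had 235 and 179 CPM in EV, 209 and 228 in sgZNF146, and 189 and 176 in sgZNF507. The sgZNF507 libraries were below the sgZNF146 libraries, while the EV libraries spread across the whole range and included the highest of the 6. The log2 fold change of sgZNF507 against sgZNF146 was -0.26 (SE 0.10, 95% interval -0.48 to -0.04, adjusted p = 1.00 by edgeR), and none of the 10 hosts passed the test by edgeR, against 0.173% of all genes, or by DESeq2. At an unadjusted p under 0.05 each tool found 1 host, SNHG3, with 4.03% of all genes by edgeR and 338 of all 22010 by DESeq2. With the replicate number as a block SNHG3 passed, at an adjusted p of 0.0263, where 0.891% of all genes passed. The spread of the 6 libraries of SNHG3 was not shared by replicate number, since replicate 2 stood at 0.762 times replicate 1 in EV, 1.09 times in sgZNF146 and 0.933 times in sgZNF507.

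SNORA73B, whose sequence is printed above, had 181 and 127 CPM in EV, 173 and 200 in sgZNF146, and 132 and 138 in sgZNF507. The order of the libraries was close to that of its host, with both sgZNF507 libraries below both sgZNF146 libraries and the 2 EV libraries far apart. The log2 fold change of sgZNF507 against sgZNF146 was -0.47 (SE 0.12, 95% interval -0.74 to -0.20, adjusted p = 0.524 by edgeR). The adjusted p by edgeR was 5.55e-05 with the replicate number as a block and 7.71e-08 without a filter on low counts. By DESeq2 it was 0.000851 on the 4 libraries compared and 1.00 on all 6. With all 6 libraries kept, edgeR did not call it under other normalizations, with 0.537 for the size factors of DESeq2 and 0.598 for upper quartile normalization. The same held for at least 10 counts in every library (0.552) and for edgeR on the 4 libraries compared (0.0675). With 1 library left out the log2 fold change ran from -0.56 (without sgZNF146 replicate 1) to -0.36 (without sgZNF146 replicate 2). The difference of sgZNF146 from EV was 0.28 (SE 0.12, adjusted p = 1.00), and it became 0.04 without EV replicate 2 and 0.55 without EV replicate 1.

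The ratio of SNORA73B counts to SNHG3 counts was 0.77 and 0.71 in EV, 0.829 and 0.875 in sgZNF146, and 0.696 and 0.784 in sgZNF507. Both sgZNF146 libraries were above the other 4. RCC1, a guanine nucleotide exchange factor gene that shares 242 exonic bases with SNHG3 on the same strand, had 230 and 220 CPM in EV, 223 and 207 in sgZNF146, and 236 and 224 in sgZNF507. Its libraries were higher in sgZNF507 than in sgZNF146, the reverse of SNHG3, with a log2 fold change of 0.09 (SE 0.06, adjusted p = 1.00 by edgeR). The gap was narrow, from 223.0 CPM in sgZNF146 replicate 1 to 223.5 in sgZNF507 replicate 2. Of all genes tested 32.1% did not overlap in this comparison. How reads in the shared bases were divided between SNHG3 and RCC1 was not tested.

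**Figure D3:**
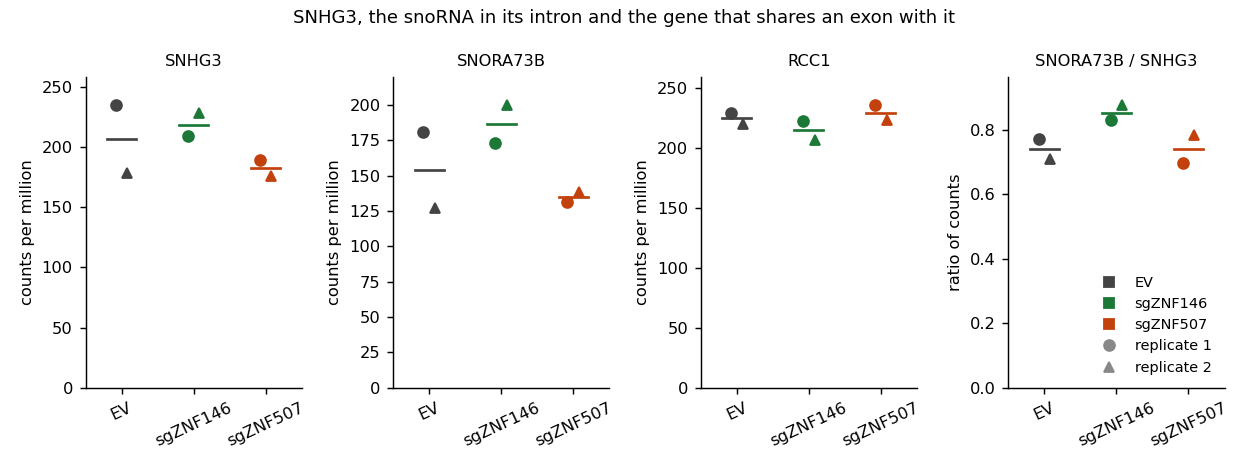
CPM of SNHG3, of SNORA73B within its intron and of RCC1, which shares an exon with it, and the ratio of SNORA73B to SNHG3 counts, in each library with the group mean as a bar. SNHG3 and SNORA73B are lower in both sgZNF507 libraries than in both sgZNF146 libraries, while EV replicate 1 (235 and 181 CPM) and replicate 2 (179 and 127 CPM) lie far apart.

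In total 4 hosts had libraries that did not overlap between sgZNF507 and sgZNF146, against 32.1% of all genes tested. SNHG3, GAS5 and SNHG15 were lower in sgZNF507, and SNHG5 was higher. The log2 fold changes other than that of SNHG3 were -0.13 for GAS5 (SE 0.06), -0.11 for SNHG15 (SE 0.07) and 0.10 for SNHG5 (SE 0.08). The 10 hosts had a median of -0.03, and all genes had a median of -0.004.

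The other 6 hosted snoRNAs were near the limit of these libraries, with at most 2.04 CPM and between 13 and 51 counts per library. SNORD12C in ZFAS1 had 14 and 21 counts in EV, 22 and 27 in sgZNF146, and 25 and 36 in sgZNF507. Scaled to library size, it had 0.562 and 0.760 CPM in EV against 1.09 and 1.24 in sgZNF507. These did not overlap, where 29.3% of all genes tested did not overlap. Its log2 fold change, the highest of the hosted snoRNAs, was 0.81 (SE 0.33, adjusted p = 1.00 by edgeR). SNORD12 and SNORD12B in the same host had log2 fold changes of 0.11 (SE 0.24) and -0.08 (SE 0.35). SNORD78 in GAS5 and SNORD1B in SNHG16 had 0.16 (SE 0.36) and 0.22 (SE 0.38), so that differences of this size were not detectable at this depth. Hosts and hosted snoRNAs together took 0.111% ± 0.0119 of counts in EV, 0.114% ± 0.00608 in sgZNF146 and 0.107% ± 0.00106 in sgZNF507 (mean ± SD, n = 2).

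The labels number the libraries of each group 1 and 2, and the second set was compared with the first with the group as a term, over 3 pairs. Of the 10 hosts 1 passed edgeR's test, against 7.25% of all genes and 3.44% in the same direction. ZFAS1 (GRCh37 chr20:47894715-47916137, plus strand), the antisense transcript at the 5' end of ZNFX1 and host of the SNORD12 family, had 26.2, 24.2 and 26.0 CPM in the first libraries of EV, sgZNF146 and sgZNF507 and 22.1, 22.6 and 20.02 in the second. Every second library was below every first library. ZFAS1 fell by 0.24 on the log2 scale (SE 0.07, adjusted p = 0.0246 by edgeR), lower in 3 of 3 pairs, but it did not pass by DESeq2 (-0.24, adjusted p = 0.258). Without either EV library the log2 fold change stayed at -0.24 and the call was lost. Without either sgZNF507 library it became -0.17 and the call was lost, and without either sgZNF146 library it was -0.31 and -0.30 and the call was kept. A group left with 1 library holds no difference between replicates. Leaving out its first or its second library therefore gives the same comparison of the other groups, not a separate check.

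ZNFX1, which starts 585 bases from ZFAS1 on the opposite strand and shares 249 exonic bases with it, had 46.9, 44.9 and 48.1 CPM in the first libraries and 44.2, 42.8 and 42.0 in the second. It was also lower in 3 of 3 pairs without overlap, with a log2 fold change of -0.12 (SE 0.05, adjusted p = 0.216 by edgeR). The strand setting of the counting is not given in the sources used here, so reads of ZFAS1 and ZNFX1 in the shared bases cannot be assigned with certainty. The same holds for SNHG6 with MCMDC2 and SNHG8 with PRSS12, which share 1488 and 2487 exonic bases on opposite strands. SNHG3 was the other host with an unadjusted p under 0.05 (-0.12, adjusted p = 0.17 by edgeR), 2 of 10 against 19.5% of all genes. Without either sgZNF146 library its log2 fold change was -0.25, which is again the same comparison of EV and sgZNF507 pairs both times. The remaining 8 hosts had log2 fold changes between -0.07 and 0.09. ZFAS1 alone had no overlap between the first and second libraries, 1 of 10 against 22.1% of all genes.

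**Figure D4:**
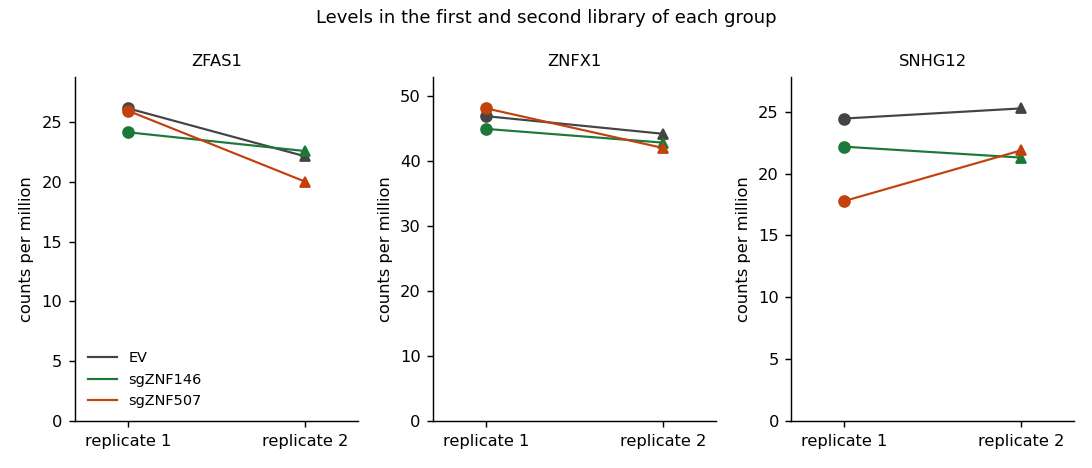
CPM of ZFAS1, of its opposite-strand neighbour ZNFX1 and of SNHG12 in the first (circle) and second (triangle) library of each group, joined by a line per group. All 3 lines fall for ZFAS1 and ZNFX1, and SNHG12 shows EV above the other groups in both libraries, with the 2 sgZNF507 libraries at 17.8 and 21.9 CPM.

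Of 17 other noncoding host genes in the table, 16 were tested and 0 passed edgeR's test in any comparison, or DESeq2's. At an unadjusted p under 0.05 edgeR found 0 in each comparison between groups and 2 between replicates, where it found 19.5% of all genes. Their median log2 fold change in sgZNF507 against EV was 0.00, between SNHG22 at -0.69 (SE 0.41) and MEG8 at 0.26 (SE 0.33), at no more than 0.868 and 1.07 CPM in any library. The proteins that bind snoRNAs and assemble them into particles, such as FBL, the methyltransferase, and DKC1, the pseudouridine synthase, gave 0 of 16 by edgeR and DESeq2 in all comparisons. In sgZNF507 against EV 14 of the 16 were below 0, against 11236 of 22010 genes tested, with a median of -0.04 against -0.0032 over all genes, and the extremes were RPAP3 at -0.15 (SE 0.10) and PIH1D1 at 0.06 (SE 0.07). At an unadjusted p under 0.05 edgeR found 0 of the 16 in each comparison between groups and 4 between replicates, where it found 19.5% of all genes.

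Nonsense-mediated decay factors, which act on the spliced host RNAs, numbered 14, and 0 passed in a comparison between groups by edgeR or DESeq2. At an unadjusted p under 0.05 edgeR found 1 in sgZNF507 against EV, where it found 3.39% of all genes, and 0 in the others. The lowest in sgZNF507 against EV was UPF3B, an exon junction-binding factor, at -0.22 (SE 0.08, adjusted p = 1.00 by edgeR), and the highest was SMG6, the endonuclease, at 0.02. Between replicates 1 of the 14 passed, against 7.25% of all genes. CASC3, a component of the exon junction complex, rose by 0.16 in the second libraries (SE 0.04, adjusted p = 0.0123 by edgeR and 0.0439 by DESeq2). Of 10 genes that control translation of 5'TOP RNAs, 0 passed between groups by either tool, and edgeR found 0 of them at an unadjusted p under 0.05, with EIF4E lowest at -0.11 and EIF4EBP1 highest at 0.06 in sgZNF507 against EV. Between replicates 2 of the 10 passed, again against 7.25% of all genes. TSC2 rose by 0.18 (adjusted p = 0.00643) and EIF4EBP1, which restrains EIF4E, fell by 0.18 (adjusted p = 0.0183, and 0.181 by DESeq2).

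Protein-coding genes that carry a snoRNA on their strand were the largest list, with 365 of 407 tested. None passed between groups by edgeR or DESeq2. At an unadjusted p under 0.05 edgeR found 13 in sgZNF507 against EV, where it found 3.39% of all genes. It found 7 in sgZNF146 against EV and 12 in sgZNF507 against sgZNF146, where it found 2.43% and 4.03% of all genes. Their median log2 fold change in sgZNF507 against EV was -0.02, between NPM2 at -0.85 (SE 0.48) and NME5 at 0.62 (SE 0.31), at no more than 0.844 and 1.80 CPM in any library. With the replicate number as a block, RPL37, a ribosomal protein gene, passed in sgZNF507 against EV (-0.30, adjusted p = 0.00174) and against sgZNF146 (-0.27, adjusted p = 0.00759), and SLC37A3 and ZFYVE26 passed against sgZNF146 (0.24 and 0.21, adjusted p = 0.0478 and 0.0409). Of all 22010 genes tested, the block called 121 in sgZNF507 against EV and 0.891% in sgZNF507 against sgZNF146. RPL37, SLC37A3 and ZFYVE26 are named because the block called them, a choice made after their values were seen.

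Between replicates 30 of the 365 passed, 17 higher and 13 lower in the second libraries, where 7.25% of all genes passed. DESeq2 called 7 of them, and 391 of all 22010 genes. Those higher were SPEN, ATP2B4, MXD1, PKP4, PRKAA1, ZBED3, BCAP29, CCDC25, MAN1B1, BICDL1, NALF1, ZFYVE26, ATG2B, EIF4A1, MED24, TEX14 and SLC39A11, from 0.13 for ZFYVE26 to 0.50 for BICDL1 on the log2 scale. Those lower were TRERF1, WIPF3, ELMO1, KMT2E, MAGED2, EDA, STAG2, CAMK1D, STIM1, CHD3, TMEM107, EPB41L1 and RPL13A, from -0.45 for TRERF1 to -0.14 for STAG2. RPL13A and EIF4A1, translation genes with their own snoRNAs, went opposite ways. RPL13A had 518, 520 and 535 CPM in the first libraries and 493, 461 and 445 in the second (log2 fold change -0.17, adjusted p = 0.0164 by edgeR and 0.0192 by DESeq2), lower in 3 of 3 pairs. EIF4A1 had 23.3, 22.2 and 21 CPM in the first libraries and 27.2, 25.8 and 24.8 in the second (log2 fold change 0.23, adjusted p = 0.0265 by edgeR and 0.266 by DESeq2), higher in 3 of 3 pairs.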

How the data were processed

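Libraries were strand-specific, ribosome-depleted and sequenced as paired 50 bp reads. The authors clipped adapters, removed ribosomal reads, aligned to hg19 with TopHat2 and counted reads per Ensembl gene with featureCounts, and the deposited values are these raw counts, not normalized. Of 57773 identifiers, 55538 (96.1%) matched GENCODE v44 lifted to GRCh37, which gave symbols, lengths and snoRNA positions. Counts were tested with edgeR 4.0.16 (quasi-likelihood, TMM, filterByExpr, 1 fit of 6 libraries with the group as its term) in R 4.3.3, with Benjamini-Hochberg adjustment over 22010 genes. The comparison of replicates added the replicate number, which the labels give. Same-numbered libraries deviated together (r across genes 0.138, 0.176 and 0.145), so the numbers were taken to pair them. The main comparisons between groups leave this pairing out, and it enters them only in the alternative with a replicate block. Standard errors came from the F statistic, and the 95% intervals are moderated. DESeq2 1.42.0, other normalizations and filters, a replicate block and leaving out each library were alternatives, and the fits were tested on simulated data. The study calls the libraries biological duplicates. The p-values measure only the spread between duplicates, with that of each gene moderated towards that of other genes. Host genes, gene lists and tests were chosen with earlier results of these data known. Named were all hosts, the most counted snoRNA of each host, every listed gene that passed, the highest and lowest of each list in sgZNF507 against EV, and the targeted genes. RCC1, ZNFX1 and ZBTB37 were named for their position. SNORD12B and SNORD12C fall outside these rules, and SNORD12C had the highest log2 fold change of the hosted snoRNAs in sgZNF507 against EV (0.81). SNHG4, RBM8A, ZNHIT3, NEFL and PECAM1 were not analysed here.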

Additional observations from a re-analysis of the deposited data

How the results depend on the processing

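Of 530 refits of the 10 host genes across alternatives and comparisons, 483 kept their direction and their side of the threshold. When the replicate number entered as a block, 121 genes passed in sgZNF507 against EV, 33 in sgZNF146 against EV and 196 in sgZNF507 against sgZNF146, in place of 40, 0 and 38, and among hosts SNHG3 alone passed, 1 in the last comparison. The blocked fit left 2 residual degrees of freedom a gene and took 43.6 from the spread of other genes, against 3 and 9.51 without the block. The block changed no other call of a host or hosted snoRNA than those of SNHG3 and SNORA73B in that comparison. Without a filter on low counts the 3 numbers were 101, 19 and 112, and on the 4 libraries compared 3 genes passed in sgZNF146 against EV by edgeR and 3 by DESeq2. In replicate 2 against replicate 1 DESeq2 called 391 genes in place of 1596 and 0 hosts in place of 1. Leaving out each library gave 12 to 44 genes in sgZNF507 against EV, 0 to 3 in sgZNF146 against EV, 13 to 37 in sgZNF507 against sgZNF146, 956 to 1239 between replicates, and 0 to 2 hosts between replicates, and a group left with 1 library was assumed to vary like the others. The cause of these shifts was not tested.

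No value that changed sign when a library was left out had passed the test with all 6 libraries. In sgZNF507 against EV the log2 fold change crossed 0 for SNHG1 (-0.10 to 0.038), SNHG3 (-0.36 to 0.035), SNHG5 (-0.036 to 0.15), SNHG8 (-0.18 to 0.015), SNHG16 (-0.085 to 0.018), ZFAS1 (-0.27 to 0.12), SNORD78 (-0.26 to 0.70), SNORA73B (-0.42 to 0.091), SNORD99 (-0.31 to 0.23), SNORD1B (-0.057 to 0.51), SNORD12 (-0.075 to 0.31), ZNFX1 (-0.12 to 0.091), SMG6 (-0.022 to 0.074) and EIF4EBP1 (-0.10 to 0.21). In sgZNF146 against EV it crossed 0 for GAS5 (-0.013 to 0.083), SNHG1 (-0.10 to 0.030), SNHG3 (-0.11 to 0.29), SNHG5 (-0.14 to 0.048), SNHG6 (-0.059 to 0.025), SNHG8 (-0.19 to 0.0053), SNHG16 (-0.051 to 0.050) and ZFAS1 (-0.17 to 0.077), and in sgZNF507 against sgZNF146 for SNHG1 (-0.013 to 0.030), SNHG8 (-0.022 to 0.045), SNHG12 (-0.28 to 0.0078) and ZFAS1 (-0.22 to 0.16). Between replicates it crossed 0 for GAS5 (-0.047 to 0.011), SNHG1 (-0.072 to 0.014), SNHG3 (-0.25 to 0.0092), SNHG6 (-0.081 to 0.024), SNHG8 (-0.13 to 0.0003), SNHG12 (-0.0007 to 0.17), SNHG16 (-0.037 to 0.034) and SNORA73B (-0.23 to 0.13). SNORD99 in sgZNF507 against EV was also -0.004 with the block, -0.0084 by DESeq2 on 6 libraries and -0.0092 on 4, and SNHG16 in sgZNF146 against EV was -0.0008 without the filter. With 2 libraries a group, the farthest bound of a host's interval between groups was -0.56 on the log2 scale (SNHG12), and the hosted snoRNAs other than SNORA73B have too few counts to narrow them further.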
